A study of Homo sapiens with 6 samples.

Results

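The genes described here are the well-expressed numbered ZNF genes of HPNE-hTERT cells, a pancreatic ductal epithelial line from normal human tissue that was immortalized with telomerase. They are protein-coding genes whose symbol is ZNF followed by a number, selected on an average of 1000 or more normalized reads over all 6 libraries. This rule chose 138 of 477 such ZNF genes, out of 62754 genes in the deposited table. The average over both groups chose them and is not a result. It did not use the difference between the groups, but 15 of the 138 averaged 1000 or more in the FOLFIRINOX libraries only and 2 in the vehicle libraries only, so the level after treatment helped to choose those. At the edge, ZNF616, ZNF677 and ZNF419 were just inside with averages of 1004, 1027 and 1032 normalized reads. ZNF248, ZNF239 and ZNF440 were just outside with 977, 979 and 994.

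The study compared FOLFIRINOX with its vehicle. In the FOLFIRINOX group, cells received SN-38 at 25 nM together with oxaliplatin at 5 µM and 5-fluorouracil at 10 µM over 4 days, a drug mixture given to bring on senescence, the lasting arrest of cell division. In the vehicle group, cells received DMSO. Each group had 3 libraries of polyadenylated RNA, named P14, P15 and P19 in the deposited table. SN-38 is the active form of irinotecan, a topoisomerase I inhibitor. All libraries came from 1 line, so the values describe that line. Recovered gene counts ranged from 83981154 to 97762802 reads per library.

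Most ZNF genes encode C2H2 zinc finger proteins, in which pairs of cysteines and histidines hold a zinc ion and each finger reads a few bases of DNA. Many carry a KRAB box at the start of the protein. The KRAB box binds TRIM28, which brings the methyltransferase SETDB1, HP1 proteins and the NuRD complex to silence transposable elements and other targets. The genes arose by repeated local duplication, above all on chromosome 19, where they stand in long clusters of similar copies. Other ZNF proteins lack the box and act as promoter factors, chromatin proteins or RNA-binding proteins.

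The coding DNA of 1 finger is shown for each of the 8 members with the largest rises, because the finger is the unit these proteins share. Each sequence is the first finger that is followed by the usual linker, read on the coding strand from GENCODE 29 transcripts on GRCh38. It runs from the first cysteine codon to the base before the next finger. Capitals mark the codons of the 2 cysteines and 2 histidines that hold the zinc ion.
ZNF383, chr19:37242834-37242917, plus strand: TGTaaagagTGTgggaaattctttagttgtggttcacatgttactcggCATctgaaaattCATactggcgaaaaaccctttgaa
ZNF337, chr20:25676409-25676492, minus strand: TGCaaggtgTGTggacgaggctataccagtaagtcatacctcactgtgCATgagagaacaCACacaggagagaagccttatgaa
ZNF699, chr19:9296312-9296395, minus strand: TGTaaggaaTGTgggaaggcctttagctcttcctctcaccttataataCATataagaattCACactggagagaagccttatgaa
ZNF561, chr19:9610479-9610562, minus strand: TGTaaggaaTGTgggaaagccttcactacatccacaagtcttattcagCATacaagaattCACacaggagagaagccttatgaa
ZNF83, chr19:52614115-52614198, minus strand: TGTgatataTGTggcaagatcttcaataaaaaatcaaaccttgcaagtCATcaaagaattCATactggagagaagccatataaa
ZNF559, chr19:9342346-9342429, plus strand: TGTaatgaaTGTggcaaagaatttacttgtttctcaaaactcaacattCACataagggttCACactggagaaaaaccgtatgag
ZNF195, chr11:3359691-3359774, minus strand: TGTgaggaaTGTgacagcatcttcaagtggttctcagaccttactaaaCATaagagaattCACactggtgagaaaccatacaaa
ZNF260, chr19:36514903-36514986, minus strand: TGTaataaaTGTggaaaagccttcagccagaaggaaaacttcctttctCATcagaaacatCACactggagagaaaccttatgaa
Each finger is 84 bases long. Between any 2 of the 8 sequences, 59.5% to 79.8% of bases were identical, and the closest pair was ZNF699 and ZNF561 with 67 identical bases. Both lie in the same cluster on chromosome 19. ZNF383 and ZNF260, also of 1 cluster, shared 60.7% of bases, while ZNF83 and ZNF195, on chromosomes 19 and 11, shared 71.4%. The search required the cysteines, histidines and linker, which sets part of the identity.

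The members split by protein structure. A KRAB A box, taken as 11 or more of 15 conserved positions in any coding isoform, was found in 74 members and not in the other 64, and no member had more than 7 and fewer than 11 matches. Only 2 of 1878 other coding genes looked at met the same rule. KRAB-box members had a median of 12 fingers, with a range of 3 to 24, against a median of 6 and a range of 0 to 33 in the other members. A finger with the usual linker was present in 73 of the 74 KRAB-box members and in 27 of the 64 others. Of all 138, 3 had no finger by the pattern searched (ZNF703, ZNF503 and ZNF330), and 8 had 1.

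After FOLFIRINOX, 24 of the 138 ZNF members were higher and 2 were lower at an adjusted p under 0.05 by limma (Benjamini-Hochberg over 17951 genes), and 112 were not called. That is 17.4% higher and 1.45% lower, against a background of 11.4% and 12.2% of all genes tested. The median log2 difference of the members was 0.26, with quartiles of 0.08 and 0.50, against 0.02 over all genes tested. The difference was above 0 for 112 members (81.2%), against 51.3% of all genes tested. Among protein-coding genes with the same minimum average, 9.32% were higher and 15.7% lower, and the median difference was -0.05. All 3 FOLFIRINOX libraries lay above all 3 vehicle libraries for 45 members and below them for 6, against 19.9% and 19.6% of all genes tested.

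**Figure D1:**
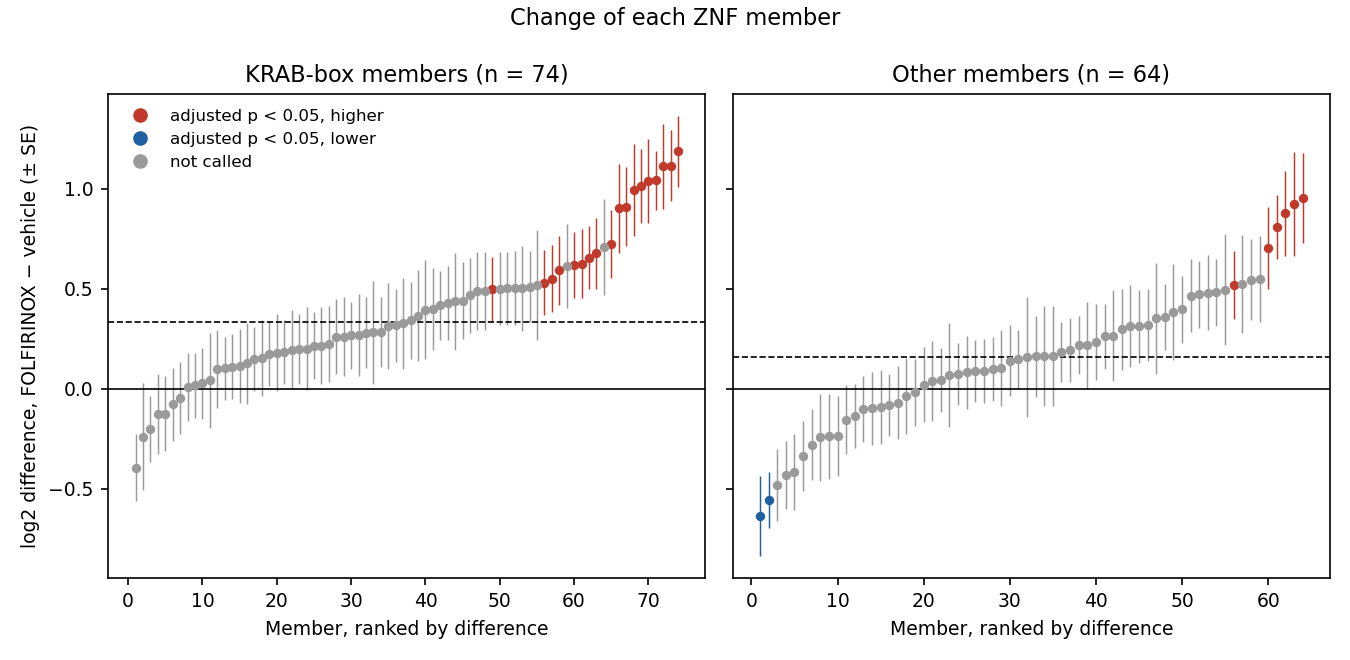
Log2 difference between FOLFIRINOX and vehicle, with its standard error, for each of the 138 ZNF members (left, 74 with a KRAB box; right, 64 without), ranked within each panel. Dashed lines mark the medians of 0.34 and 0.16, red points the 24 members called higher, and blue points the 2 called lower, both without a KRAB box.

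The count of calls depended on which libraries were used, while the median stayed above 0 in every setting run. Without the FOLFIRINOX library P14, P15 or P19, 16, 15 and 13 members were higher (11.6%, 10.9% and 9.42%), against 8.2%, 7.94% and 6.89% of all genes tested in the same setting. Without the vehicle library P15 or P19, 19 and 43 were higher (13.8% and 31.2%), against 8.96% and 12.6% of all genes. Without the vehicle library P14, 13 were higher (9.42%), near the 8.6% of all genes. Without both P14 libraries, 9 members were higher (6.52%), near the 6.08% of all genes, and 1 was lower (0.725%), against 7.89%. The P numbers appear to pair the libraries (the same number deviates alike in both groups), which the main test leaves out. With P number as a block limma called 58 members higher and 7 lower, against a background of 22.3% and 21.8%. Within the P14, P15 and P19 pairs the median difference was 0.45, 0.20 and 0.18, and 117, 100 and 101 members were higher after FOLFIRINOX. The same values over all genes were not taken pair by pair, so a shift of a whole pair is not set apart in them. The difference pointed up within all 3 pairs for 85 members and down for 11, against 33.7% and 31.5% of all genes tested. Among the 121 members that averaged 1000 or more in both groups, 19 were higher (15.7%) and 2 lower (1.65%), with a median of 0.22. In the same test, 11.4% of all genes were higher and 12.2% lower.

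In total, the members took 0.425%, 0.462% and 0.50% of normalized reads after FOLFIRINOX (P14, P15, P19), against 0.305%, 0.357% and 0.403% with vehicle. The groups did not overlap, and P19 was the highest library of each group. The share of mitochondrial ribosomal RNA moved with treatment as well. It was 2.74%, 1.18% and 1.23% in the FOLFIRINOX libraries and 0.864%, 0.563% and 0.552% in the vehicle libraries, highest in P14 in both groups. Its part in the members' values was not tested. In bulk RNA, fewer cells of a kind and less RNA per cell cannot be told apart.

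Markers bore out the labelled ductal epithelium only in part. Of 9 ductal epithelial markers, 6 averaged 10 or more, led by KRT18 and KRT8, while EPCAM was at or near 0 and KRT19 averaged 9.9 after FOLFIRINOX and 3.3 with vehicle. Their sum was 8962 to 9959 normalized reads after FOLFIRINOX and 11979 to 14440 with vehicle. All 8 mesenchymal markers were present, with sums of 2523501 to 3068518 after FOLFIRINOX and 3503337 to 5239881 with vehicle. No acinar or endocrine marker averaged 10. The 3 markers of dividing cells (MKI67, TOP2A and CCNB1) summed to 1730.3 to 2108 after FOLFIRINOX and 51140 to 79896 with vehicle. Whether these shifts have a part in the ZNF values was not tested.

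Among KRAB-box members, 18 of 74 were higher (24.3%) and 0 were lower, against 11.4% and 12.2% of all genes tested. The difference was above 0 for 67 of the 74, with a median of 0.34. None was lower by edgeR or DESeq2 either, and 1 was lower at an unadjusted p under 0.05. With the block 37 were higher and 1 lower, against 22.3% and 21.8% of all genes tested. Of the 18, 5 averaged 1000 or more only in the FOLFIRINOX libraries (ZNF383, ZNF699, ZNF559, ZNF28 and ZNF677), all on chromosome 19, so the level after treatment helped to choose them. Among the 58 KRAB-box members that averaged 1000 or more in both groups, 13 were higher (22.4%) and 0 lower, with a median of 0.28. The largest rise of all members was that of ZNF383, a KRAB zinc finger gene on chromosome 19. It had 1537, 1519.5 and 1806 normalized reads after FOLFIRINOX (P14, P15, P19), against 625, 683 and 833 with vehicle. Every FOLFIRINOX library was above every vehicle library, and the average was 1000 or more only in the FOLFIRINOX group. The log2 difference was 1.19 with a standard error of 0.18, a 2.28-fold rise (limma adjusted p = 0.000822). Exons of ZNF383 overlap those of ZNF585B on the opposite strand, and whether counting used strand is not given.

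ZNF561 was the most abundant of the 8 largest risers. It had 8300, 7702 and 7666 normalized reads after FOLFIRINOX (P14, P15, P19) and 3534, 3919 and 4038 with vehicle. The lowest treated library was well above the highest vehicle library. Its log2 difference was 1.04 ± 0.15 (SE, limma adjusted p = 0.000529). ZNF561 overlaps its antisense gene ZNF561-AS1. Whether counting used strand is not given, which leaves reads of the pair impossible to tell apart.

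ZNF337, on chromosome 20, was nearly even within the treated group, with 2573, 2660.4 and 2558 normalized reads after FOLFIRINOX against 975, 1407 and 1249.6 with vehicle. Its log2 difference was 1.12 ± 0.18 (SE, limma adjusted p = 0.00117), and its exons overlap those of ZNF337-AS1. ZNF699 had 1523.5, 1967 and 2086 normalized reads after FOLFIRINOX against 647, 978 and 975 with vehicle, a log2 difference of 1.11 ± 0.21 (SE, limma adjusted p = 0.00357). In both genes the P14 library was the lowest of the vehicle group. Exons of ZNF699 overlap those of AC011451.1 on the opposite strand.

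ZNF559 and ZNF83, also KRAB-box genes of chromosome 19, rose about as far. ZNF559 had 1432, 1368 and 1618 normalized reads after FOLFIRINOX against 635, 683 and 885 with vehicle, a log2 difference of 1.01 ± 0.18 (SE, limma adjusted p = 0.00271). Its exons are shared with the readthrough gene ZNF559-ZNF177. ZNF83 had 2015, 1988 and 2249 normalized reads after FOLFIRINOX against 957, 794 and 1366 with vehicle, a log2 difference of 1.04 ± 0.21 (SE, limma adjusted p = 0.00477). ZNF195, on chromosome 11, had 2275.5, 1648 and 2432 normalized reads after FOLFIRINOX against 936, 864 and 1427 with vehicle. Its treated P15 library came close to the vehicle P19 library without overlapping it, and the log2 difference was 0.99 ± 0.23 (SE, limma adjusted p = 0.00996). The call was lost without both P14 libraries (limma adjusted p = 0.104).

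**Figure D2:**
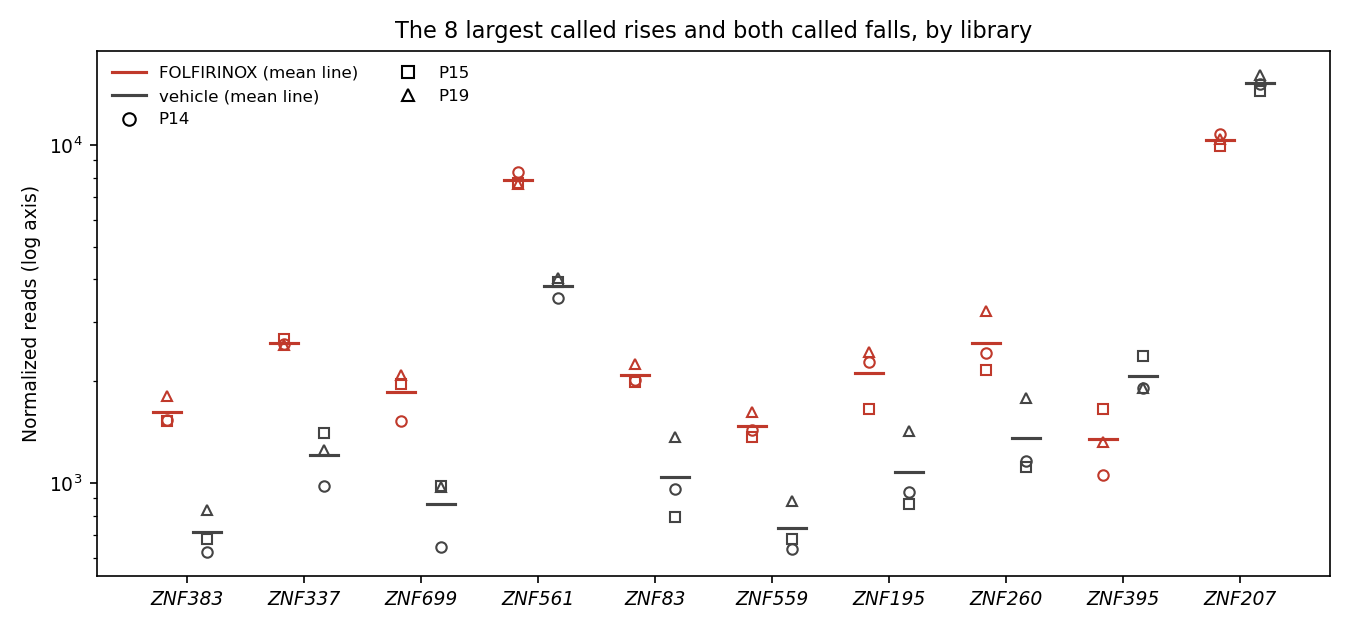
Normalized reads (log axis) of the 8 members with the largest called rises and of the 2 called lower, in each FOLFIRINOX library (red) and vehicle library (grey), with the P number as the symbol and the group mean as a line. The groups do not overlap for any of the 10 genes, for example 1519.5 to 1806 against 625 to 833 for ZNF383.

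All 24 higher members had groups that did not overlap and were also called with the block. The 24 were picked by their call on the same values, so neither is separate support. Of all genes tested, 19.9% had all FOLFIRINOX libraries above all vehicle libraries, and 22.3% were called higher with the block. Of the 24, 11 stayed called in all 6 settings that left out 1 library: ZNF383, ZNF337, ZNF699, ZNF561, ZNF83, ZNF559, ZNF195, ZNF260, ZNF468, ZNF106 and ZNF397. ZNF677 and ZNF528 were lost only without the FOLFIRINOX library P19. The other 11 were lost in 3 or more of the 6: ZNF654, ZNF28, ZNF608, ZNF211, ZNF320, ZNF875, ZNF841, ZNF621, ZNF426, ZNF121 and ZNF791. The 112 members without a call ranged from -0.48 (ZNF703) to 0.71 (ZNF302) on the log2 scale. ZNF302 had overlapping groups and missed the threshold (limma adjusted p = 0.0546, with the block 3.76e-05). The authors' deposited table, from DESeq2, gave 25 members higher and 2 lower, with a background of 9.5% and 9.89% of genes that have an adjusted p there.

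Many members cannot be fully told apart from their neighbours. Exons of 67 of the 138 members, and of 15 of the 26 called, overlap those of another gene on either strand. ZNF468 shares exonic sequence on the same strand with both ZNF28 and ZNF320, which were all higher, with log2 differences of 0.91, 0.90 and 0.63, so these 3 are not independent calls. ZNF841 overlaps ZNF432 on the same strand. The sources used here do not give how reads that match several similar copies were counted.

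The 4 KRAB-box members with an established target or role did not pass the test in either direction (0 of 4 by limma, edgeR and DESeq2, and 0 at an unadjusted p under 0.05). ZNF274, which brings SETDB1 to the 3′ ends of ZNF genes, had 2029, 2310.2 and 2057 normalized reads after FOLFIRINOX (P14, P15, P19) and 1889, 2256 and 1796 with vehicle. The groups overlapped, and the log2 difference of 0.11 had a standard error of 0.16 (limma adjusted p = 0.664). ZNF445, which guards imprinted loci, had a log2 difference of 0.22 (limma adjusted p = 0.454). ZNF202, a repressor of lipid genes, had 0.03 (limma adjusted p = 0.927), and the imprinted gene ZNF331 had -0.12 (limma adjusted p = 0.671).

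Among the 64 members without a KRAB box, 6 were higher (9.38%) and 2 lower (3.12%), against 11.4% and 12.2% of all genes tested. Their median log2 difference was 0.16, and 45 were above 0. With the block, 21 were higher and 6 lower, against 22.3% and 21.8% of all genes. Among the 63 of them that averaged 1000 or more in both groups, 6 were higher and 2 lower. The 6 were ZNF260, ZNF654, ZNF106, ZNF397, ZNF608 and ZNF121. The difference between the KRAB-box and the other members was not tested, because the members of each set share clusters and sequence.

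ZNF106, an RNA-binding protein with few fingers, was the most abundant member. It had 27113, 34218 and 39912 normalized reads after FOLFIRINOX (P14, P15, P19) and 13509.5, 19876 and 22216 with vehicle. P14 was the lowest and P19 the highest library in both groups, and the groups did not overlap. The log2 difference was 0.88 ± 0.21 (SE, limma adjusted p = 0.0129). ZNF260, whose rodent counterpart acts on heart muscle genes, had 2419, 2157 and 3226 normalized reads after FOLFIRINOX against 1161, 1111 and 1787 with vehicle. Its log2 difference was 0.96 ± 0.23 (SE, limma adjusted p = 0.0111), and the call was lost without both P14 libraries (limma adjusted p = 0.0832). Exons of ZNF260 overlap those of AC092295.1 on the opposite strand.

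ZNF654 had 3584, 4284 and 6665 normalized reads after FOLFIRINOX against 2027, 2147.5 and 3431 with vehicle, so the P19 libraries stood above the rest of their group on both sides. Its log2 difference was 0.93 ± 0.26 (SE, limma adjusted p = 0.0259). ZNF397, a SCAN-domain zinc finger protein, had 2408, 2360 and 2377 normalized reads after FOLFIRINOX against 1193.5, 1473 and 1428 with vehicle. Its treated libraries were nearly equal, and the log2 difference was 0.81 ± 0.16 (SE, limma adjusted p = 0.00435). ZNF397 overlaps ZSCAN30 and ZNF654 overlaps CGGBP1, each on the opposite strand.

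The 2 lower members are both outside the KRAB group. ZNF207, known as BuGZ, binds spindle microtubules and stabilizes the checkpoint protein BUB3. It had 10761, 9934 and 10387 normalized reads after FOLFIRINOX and 15101.5, 14463 and 16143 with vehicle. The groups were far apart, and the log2 difference was -0.56 ± 0.14 (SE, limma adjusted p = 0.0162). The call was lost without the FOLFIRINOX library P15 or P19 and when every library was scaled to the same total (limma adjusted p = 0.0538). The dividing-cell markers given above were lower in the same libraries, and their part in its value was not tested.

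ZNF395, a DNA-binding protein linked to the Huntington gene promoter and to hypoxia, had 1056.5, 1655 and 1319 normalized reads after FOLFIRINOX and 1912, 2371 and 1910.4 with vehicle. The groups did not overlap. The log2 difference was -0.64 ± 0.20 (SE, limma adjusted p = 0.0398), and the call was lost in 4 of the 6 settings that left out 1 library. ZNF395 shares exonic sequence on the same strand with FBXO16.

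Of 24 listed chromatin and promoter factors, 18 were members, of which 1 was higher (ZNF608) and 1 lower (ZNF395), 5.56% each. Of all genes tested, 11.4% were higher and 12.2% lower. The median log2 difference of the 18 was 0.16. With the block, 7 were higher and 4 lower, against 22.3% and 21.8% of all genes tested. ZNF608 had 1983, 2056.5 and 2335 normalized reads after FOLFIRINOX against 963, 1506 and 1515 with vehicle, a log2 difference of 0.70 ± 0.20 (SE, limma adjusted p = 0.0291). Its paralog ZNF609 had 3179, 3616 and 3264 normalized reads after FOLFIRINOX against 4368, 5418 and 3882 with vehicle. The groups of ZNF609 did not overlap, and its log2 difference of -0.43 missed the threshold in limma (adjusted p = 0.0922) but passed it with the block (limma adjusted p = 0.00403).

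Other factors of that list had smaller differences. ZNF703, a corepressor known from luminal breast cancer, had a log2 difference of -0.48, and ZNF462, a chromatin regulator with the most fingers of all members (33), had -0.41. Their limma adjusted p values were 0.0794 and 0.141, and with the block 0.00587 and 0.012. ZNF143, a promoter factor, had 0.47 (limma adjusted p = 0.0867, with the block 0.00554), and ZNF281, a factor linked to stem cells and epithelial plasticity, had -0.24 (limma adjusted p = 0.459). ZNF217, a partner of the CoREST complex, had 0.31 (limma adjusted p = 0.248, with the block 0.0327).

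Of 12 listed proteins of RNA, ribosome and spindle, 11 were members, with 1 higher (ZNF106), 1 lower (ZNF207) and a median log2 difference of 0.16. Each call is 9.09% of the 11, against 11.4% of all genes tested higher and 12.2% lower. ZNF622, a maturation factor of the large ribosomal subunit, had 5293, 5453.5 and 5498 normalized reads after FOLFIRINOX against 4727, 4346 and 4903 with vehicle. The groups did not overlap, but the log2 difference of 0.22 ± 0.14 did not pass the test (SE, limma adjusted p = 0.307). ZNF598, the ubiquitin ligase that senses collided ribosomes, had -0.10 (limma adjusted p = 0.739), and ZNF638, which recruits the HUSH silencing complex to viral DNA, had 0.16 (limma adjusted p = 0.673). ZNF326, of the DBIRD complex of elongation and splicing, had 0.48 (limma adjusted p = 0.0882, with the block 0.00258). Outside that list, the collagen-linked gene ZNF469, mutated in brittle cornea syndrome, had a log2 difference of -0.07 (limma adjusted p = 0.82).

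By average normalized reads, the 6 most abundant members were ZNF106, ZNF207, ZNF664, ZNF24, ZNF146 and ZNF638. Per kb of exonic length, ZNF622 was highest with 2964 normalized reads per kb, then ZNF32 with 2689, ZNF106 with 2138, ZNF146 with 1779, ZNF22 with 1679 and ZNF330 with 1679. None of these has a KRAB box. ZNF664 had 10506, 10059 and 11717 normalized reads after FOLFIRINOX and 6443, 7825 and 8999.5 with vehicle. Its groups did not overlap, and the log2 difference of 0.48 ± 0.17 missed the threshold (SE, limma adjusted p = 0.059) but passed it with the block (limma adjusted p = 0.0008). ZNF146, made almost wholly of fingers, had a log2 difference of 0.55 (limma adjusted p = 0.0908, with the block 0.000215), and ZNF24, a SCAN-domain repressor, had 0.16 (limma adjusted p = 0.596).

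The members were also counted by chromosome. Of the 55 members on chromosome 19, 17 were higher (30.9%) and 0 lower, against 11.4% and 12.2% of all genes tested. The difference was above 0 for 51 of the 55, with a median log2 difference of 0.40. With the block, 30 were higher and 0 lower, against 22.3% and 21.8% of all genes tested. By edgeR, by DESeq2 or at an unadjusted p under 0.05 in limma, 0 of the 55 were lower. Of the 83 on other chromosomes, 7 were higher (8.43%) and 2 lower (2.41%), with a median of 0.18. That share of higher members was below the 11.4% of all genes tested. With an average of 1000 or more in both groups, 12 of 41 on chromosome 19 were higher (29.3%) and 0 lower, with a median of 0.33, and 7 of 80 elsewhere were higher (8.75%) and 2 lower, with a median of 0.18. KRAB boxes and chromosome 19 go together: 49 of the 55 have the box. Of these 49, 15 were higher (30.6%), with a median of 0.40. KRAB-box members on other chromosomes numbered 25, with 3 higher (12%) and a median of 0.28. That share was near the 11.4% of all genes tested, and 0 of the 25 were lower, against 12.2%. The 6 members of chromosome 19 without the box included 2 higher, with a median of 0.44. Whether these medians differ was not tested.

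Members less than 1 Mb apart were joined into clusters, with coordinates of GENCODE 29 on GRCh38. In chr19:8806170-9675086, 5 of 9 members were higher (ZNF699, ZNF559, ZNF426, ZNF121 and ZNF561), with a median log2 difference of 0.52. In chr19:36214602-37369365, 3 of 4 were higher (ZNF260, ZNF383 and ZNF875), with a median of 0.79. In chr19:51571298-53580269, 7 of 18 were higher (ZNF841, ZNF528, ZNF83, ZNF28, ZNF468, ZNF320 and ZNF677), with a median of 0.48. These 3 clusters held 15 of the 24 higher members, while 11.4% of all genes tested were higher. Counting only members with an average of 1000 or more in both groups, 3 of 7, 2 of 3 and 5 of 13 were higher in the same 3 clusters, with medians of 0.44, 0.62 and 0.47.

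The other clusters held few calls, where 11.4% of all genes tested were higher in limma and 22.3% with the block. In chr19:43912629-44448578, 0 of 6 members were called, though all 6 differences were above 0, with a median of 0.29 (2 were higher with the block, 2 at an unadjusted p under 0.05, 0 by edgeR and 1 by DESeq2). In chr19:57191500-58277495, 1 of 13 was higher (ZNF211), with a median of 0.20. In chr12:132918308-133214831, 0 of 4 were called, with a median of 0.38 (3 were higher with the block, 1 at an unadjusted p under 0.05 and 0 by edgeR or DESeq2). Neighbours could differ: ZNF562, next to ZNF561, had a log2 difference of -0.04.

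**Figure D3:**
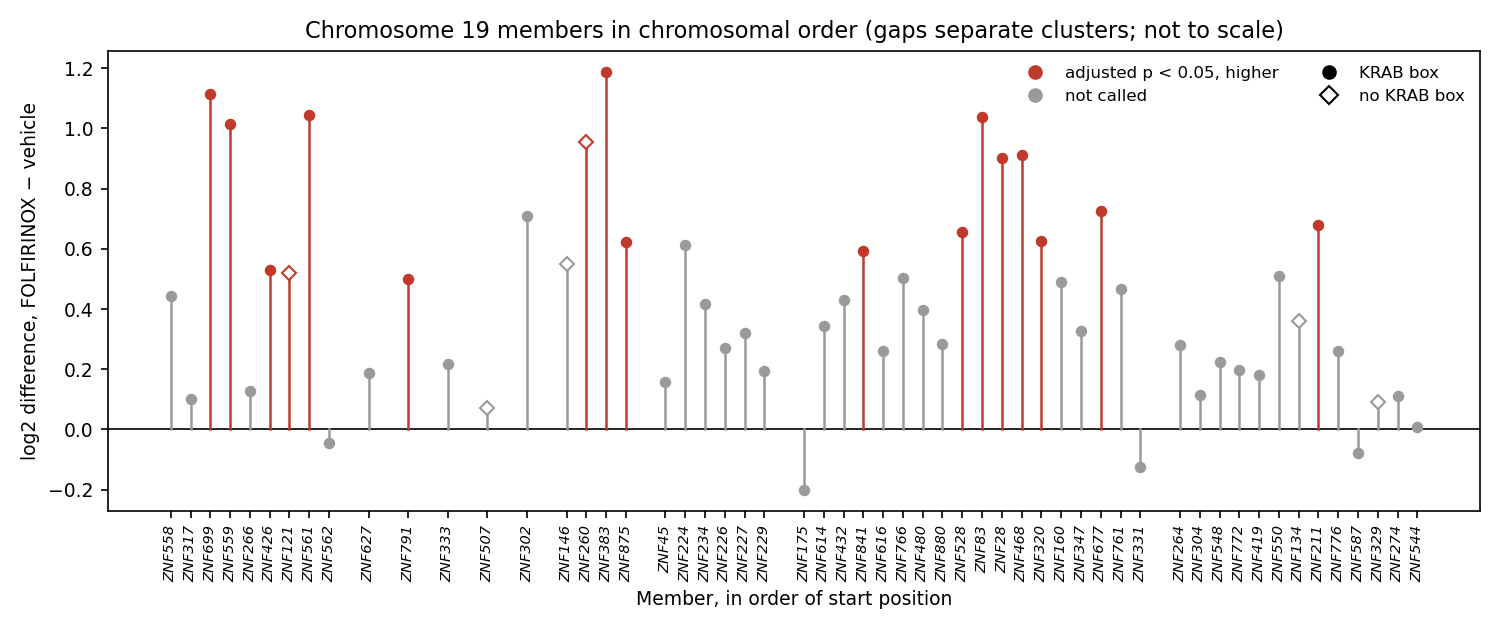
Log2 difference between FOLFIRINOX and vehicle for the 55 members on chromosome 19, in order of start position and not to scale, with gaps between clusters. Red marks the 17 members called higher and grey those not called, filled circles have a KRAB box and open diamonds do not, and 51 of the 55 lie above 0.

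The members' transcripts are poor in G and C. The GC content of the longest transcript had a median of 42.9% in the members (42.6% with and 44.0% without a KRAB box), against 47.2% over all genes tested. Among the 69 members below the members' median GC, 16 were higher (23.2%) and 1 lower (1.45%), with a median log2 difference of 0.39. Among the 69 at or above it, 8 were higher (11.6%) and 1 lower (1.45%), with a median of 0.11. Of all genes tested, 11.4% were higher and 12.2% lower. Across the 138 members, the Spearman correlation between GC content and the log2 difference was -0.49, a description of genes that share libraries and clusters. The Spearman correlation between the number of fingers and the difference was 0.30.

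When the trend of log2 value on GC content was removed from each library, 30 members were higher and 2 lower, and 23 of the 24 higher members kept their call (ZNF121 did not). The background was then 14.1% higher and 15.8% lower. The median log2 difference fell to 0.17 over all members, 0.20 with and 0.10 without a KRAB box, and the Spearman correlation with GC content was -0.19.

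**Figure D4:**
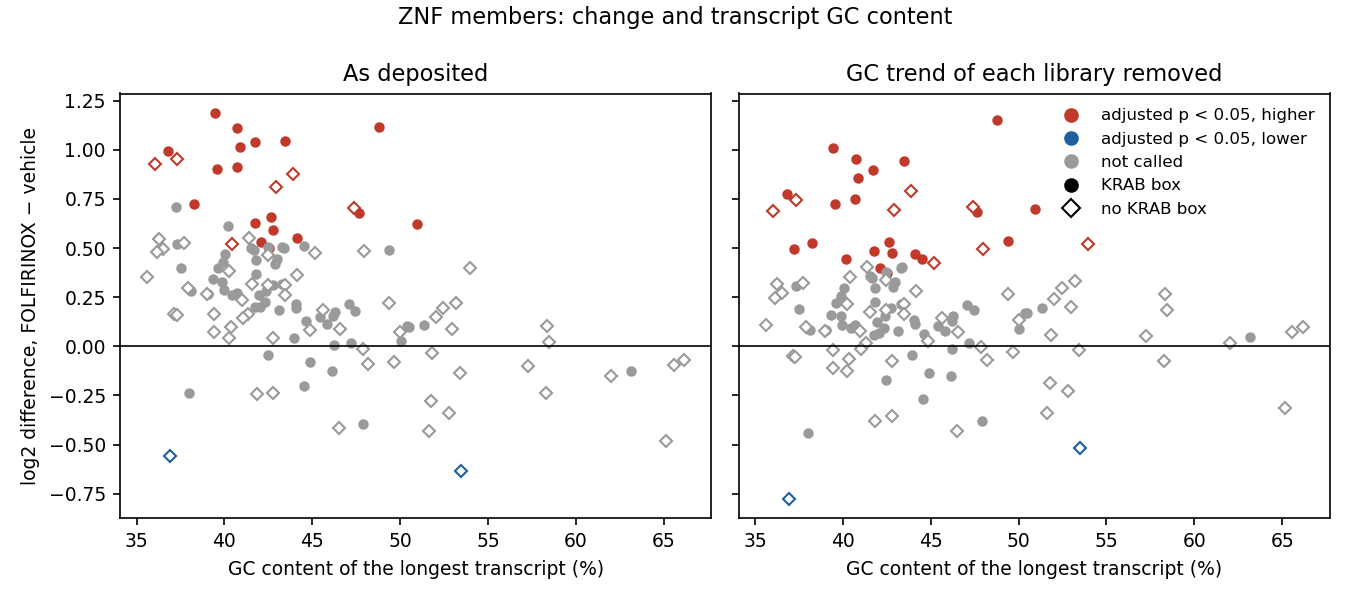
Log2 difference between FOLFIRINOX and vehicle against GC content of the longest transcript (%), for the 138 members, as deposited (left) and with each library's GC trend removed (right). Filled circles have a KRAB box, open diamonds do not, red is called higher and blue called lower in that setting: 24 and 2 on the left, 30 and 2 on the right.

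ZNF genes below the minimum average were counted in the same way. Of the 339 with an average under 1000, 304 passed the filter on low values. Of these, 49 were higher (16.1%) and 17 lower (5.59%), with a median log2 difference of 0.21. The share of higher genes was near the 17.4% of the members. Of all genes tested, 11.4% were higher and 12.2% lower. With a KRAB box, 43 of 217 tested were higher (19.8%) and 11 lower (5.07%), with a median of 0.31. Among the KRAB-box members, 24.3% were higher. Without the box, 6 of 86 were higher and 6 lower (6.98% each), with a median of 0.06 (1 had no complete coding transcript). Of the related ZBTB genes, 2 of 38 tested were higher (5.26%) and 1 lower (2.63%), with a median of 0.15. Of the ZSCAN and ZKSCAN genes, 1 of 24 was higher and 1 lower (4.17% each), with a median of 0.30.

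A list of 25 corepressor and silencing genes was counted as well. It holds TRIM28, SETDB1, HP1 and NuRD genes, which the KRAB box brings. It also holds genes of DNA methylation, other H3K9 methyltransferases and the HUSH complex, so its shares are not those of the KRAB-recruited genes alone. Of the 25 genes, 0 were higher and 8 lower (32%) by limma, against 11.4% and 12.2% of all genes tested. The count of higher genes was also 0 by edgeR, by DESeq2 and at an unadjusted p under 0.05. The median log2 difference of the 25 was -0.12. With the block 1 was higher and 9 lower, against 22.3% and 21.8% of all genes tested. TRIM28, the corepressor that binds the KRAB box itself, had 5821, 8302 and 6672 normalized reads after FOLFIRINOX (P14, P15, P19) and 13526, 12655 and 9586 with vehicle. The groups did not overlap. The log2 difference was -0.78 ± 0.19 (SE, limma adjusted p = 0.0126), and the call was lost without both P14 libraries (limma adjusted p = 0.113). SETDB1, which methylates histone H3 at TRIM28 sites, had 1730.3, 1936 and 1939 normalized reads after FOLFIRINOX and 2309, 2482 and 2448 with vehicle. Its groups did not overlap either, but the log2 difference of -0.37 did not pass the test (limma adjusted p = 0.105, with the block 0.0168).

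The largest falls among these 25 were in genes that maintain silent marks after replication. UHRF1, which brings DNMT1 to newly copied DNA, had 808, 728 and 733 normalized reads after FOLFIRINOX and 3427, 4268 and 4078 with vehicle, a log2 difference of -2.37 ± 0.16 (SE, limma adjusted p = 2.39e-06). DNMT1, the maintenance DNA methyltransferase, had -1.34 ± 0.16 (SE, limma adjusted p = 0.000172). The H3K9 methyltransferases SUV39H1 and SUV39H2 had -2.17 and -1.19. CBX5, the HP1 alpha protein, had -0.85, and the NuRD subunits RBBP7 and CHD4 had -0.64 and -0.52 (limma adjusted p = 0.0127 and 0.0397). The CHD4 call was lost in all 6 settings that left out 1 library, with every library scaled to the same total (limma adjusted p = 0.123) and without both P14 libraries (limma adjusted p = 0.145). Markers of dividing cells were lower in the same libraries, as given above, and their part was not tested. The HUSH subunits MPHOSPH8 and TASOR had 0.29 and 0.18 (limma adjusted p = 0.232 and 0.623).

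**Figure D5:**
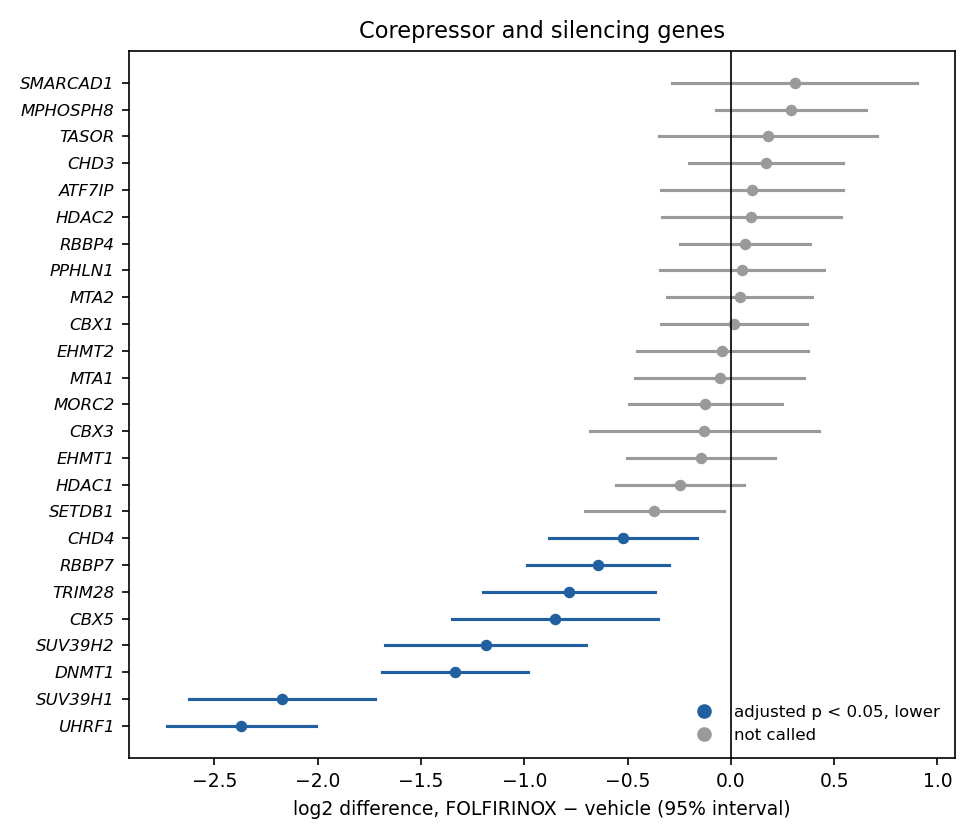
Log2 difference between FOLFIRINOX and vehicle, with its 95% interval, for 25 corepressor and silencing genes, ordered from the highest to the lowest. Blue marks the 8 called lower, of which UHRF1 is lowest at -2.37, and grey the 17 not called.

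Promoters of 3 members are shown, because ZNF699 and ZNF561 lie in 1 cluster and both rose, and ZNF207 fell. Each is 300 bases from RefSeq on GRCh38.p14, from 250 before to 50 after the start, on the gene's strand. Capitals mark matches, which may overlap, to the motifs searched on either strand: GGGCGG (SP1), CCGGAAG (ETS), CCAAT, TTTGGCGC (E2F), TTTGAA (CHR), ACTACAA (ZNF143), TGAGTCA (AP-1) and ACATGTC (p53).
ZNF699, chr19:9309789-9310088, minus strand: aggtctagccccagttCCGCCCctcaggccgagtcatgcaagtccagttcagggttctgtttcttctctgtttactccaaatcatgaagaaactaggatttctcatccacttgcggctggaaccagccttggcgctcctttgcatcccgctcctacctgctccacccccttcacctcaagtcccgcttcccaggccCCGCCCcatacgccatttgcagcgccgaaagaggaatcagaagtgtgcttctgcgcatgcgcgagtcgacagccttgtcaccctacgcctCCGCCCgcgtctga
ZNF561, chr19:9621183-9621482, minus strand: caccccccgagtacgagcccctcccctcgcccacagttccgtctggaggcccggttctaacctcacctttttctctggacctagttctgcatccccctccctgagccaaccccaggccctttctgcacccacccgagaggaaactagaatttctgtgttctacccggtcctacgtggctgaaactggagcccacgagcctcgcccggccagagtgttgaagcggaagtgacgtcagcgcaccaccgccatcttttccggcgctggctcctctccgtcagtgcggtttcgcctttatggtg
ZNF207, chr17:32349907-32350206, plus strand: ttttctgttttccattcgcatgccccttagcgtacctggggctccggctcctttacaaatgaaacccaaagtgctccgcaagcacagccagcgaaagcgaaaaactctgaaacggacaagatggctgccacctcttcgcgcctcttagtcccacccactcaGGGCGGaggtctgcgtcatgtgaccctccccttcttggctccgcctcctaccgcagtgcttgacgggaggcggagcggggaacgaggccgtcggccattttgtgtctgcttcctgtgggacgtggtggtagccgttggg
The ZNF699 promoter held the SP1 letters at 3 places and ZNF207 at 1 place, and ZNF561 held none of the motifs.

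A promoter entry was matched for 118 of the 138 members. The ETS letters CCGGAAG were in 48 of them (40.7%), against 21.7% of 6900 promoters of coding genes with the same minimum average and 10.7% of 27305 promoters in all. Of the 19 higher members with a promoter, 6 held them. The SP1 letters were in 68.6% of members' promoters, 71.7% of those of well-expressed coding genes and 44.6% of all. The ZNF143 letters were in 8.47%, 4.12% and 2.95% of the same sets, and the CCAAT box in 38.1%, 37.0% and 35.7%. The CHR letters were in 13 of the 118 members, against 9.83% and 15.4% of the other sets. E2F letters were in 0.847%, 1.09% and 0.659%, AP-1 in 2.54%, 2.71% and 4.92%, and p53 in 1.69%, 0.696% and 1.61% of these sets. The median number of CpG pairs was 23 in members, 27 in well-expressed coding genes and 14 in all. These are matches of letters and show no binding.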

How the data were processed

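Libraries of polyadenylated RNA were made, per the labels' protocols, with NEB mRNA enrichment followed by KAPA RNA HyperPrep. The submitters' processing notes name GRCh38 and list DESeq2, featureCounts 2.0.6, STAR 2.7.11b and FastQC 0.12.1. They leave out the annotation release, whether strand was used and what was done with reads that match several places.

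In the deposited table, each gene has a signal per library, which the authors normalized by library size, beside log2 fold changes, a test score and p-values of the authors' comparison. Dividing each column by what 1 read is worth in it gave whole numbers within 0.001 for 100% of values. These recovered reads served for edgeR and DESeq2. Among recovered counts below 50, 72.3% to 74.8% were even.

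Genes entered the test when 3 libraries or more reached 10 (17951 genes). Their log2(value + 1) was compared by limma 3.58.1 with a trend of variance on mean, two-sided, with treatment alone in the model. P-values were adjusted over all these genes by Benjamini-Hochberg, and 0.05 was the threshold. The pseudocount makes changes of low genes look smaller. A member's log2 difference had a median standard error of 0.18 and a median 95% half-width of 0.41. With 3 libraries against 3, an exact permutation test reaches no p below 0.1. Separate cultures are not stated, so the p-values may reflect technical spread only. On simulated data for this comparison (17046 genes), the test found 10 of 67 genes at 1.5-fold, 47 of 67 at 2-fold and 64 of 66 at 4-fold, and made 9 false calls. The simulation changed far fewer genes than were called in the data, gave all genes the same dispersion and had no pairs. These shares are therefore not the power of the comparison itself.

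The columns name a P number that no label mentions, so each column has a group but no sample of its own. Same-numbered libraries of both groups deviated together (correlations of 0.257, 0.282 and 0.288, against -0.26 to -0.03 for unlike numbers). Deviations were taken from each group's own mean. Positive values for like numbers therefore force those for unlike numbers to be negative on balance, and the negative values are no separate evidence. The numbers were therefore taken as pairs in the block, on the evidence of the column names and the positive correlations of like numbers. The main test leaves this pairing out. Its calls are those of an unpaired comparison, and a gene without a call there may be called with the block.

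Coordinates, exonic lengths, GC content, fingers (C-X2-4-C-X12-H-X3-5-H in the longest protein) and KRAB boxes came from GENCODE 29, and promoters from RefSeq. Alternatives changed the pseudocount (0.5, 8), the filter (none, 50), the scaling (TMM, equal totals, quantiles), the trend, the tool (edgeR 4.0.16, DESeq2 1.42.0), the block on P number, a GC correction, both of these, the libraries (each left out, both P14 left out), the minimum average (500, 2000) and the KRAB rule (8 positions, chosen after seeing the data). Named genes are the 8 largest called rises, every called fall, the 6 highest by average and by average per kb, the 3 on each side of the threshold and genes with a listed role, ZNF469 for collagen and matrix among them. Other called members, ZNF302, ZNF503 and ZNF562 were chosen after their values were seen. The members, lists and alternatives were chosen with earlier results of these data known. A further gene of this form is not reported here.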

Additional observations from a re-analysis of the deposited data

How the results depend on the processing

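The median log2 difference of the members was 0.26 and stayed between 0.16 and 0.37 in all settings run, lowest without the vehicle library P14. Pseudocount, filter, TMM scaling, edgeR and DESeq2 moved no count past 1.5 times, and no named gene with a call changed direction. The KRAB rule of 8 positions chose the same 74 and 64 members, so its counts could not differ. With the replicate block on P number, 58 members were higher and 7 lower (37 and 1 with a KRAB box, 21 and 6 without), 3995 and 3918 of all genes, and 1 silencing gene was higher. With the block and the GC trend removed, the counts were 55 and 11 (33 and 3 with a box, 22 and 8 without), 4138 and 4503 of all genes, and 2 silencing genes higher. Common-total scaling moved the median of all genes by 0.11, to 0.13, and that of the members to 0.37. Then 36 members were higher and 0 lower (12 and 0 without a box), and 2691 and 1696 of all genes. Quantile normalization gave 39 higher and 1 lower (28 higher with a box, 11 and 1 without), and 2207 and 2030 of all genes. With limma without trend, 15 members were higher and 1 lower (2 and 1 without a box), and 1702 and 1698 of all genes. Without both P14 libraries, 9 members were higher and 1 lower (7 higher with a box, 2 and 1 without), and 1021 and 1326 of all genes. Minimum averages of 500 and 2000 gave 41 and 6 members higher, and 6 and 1 lower, with medians of 0.23 and 0.17. These minimums select sets of other sizes. Their counts are therefore not shares and cannot be set beside those of the 138 members or of all genes.

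Leaving out 1 library at a time gave 13 to 43 members higher and 0 to 3 lower, 10 to 29 higher and 0 lower with a KRAB box, 3 to 14 higher and 0 to 3 lower without, 1201 to 2214 higher and 1506 to 2156 lower of all genes, 0 silencing genes higher and 6 to 7 lower. The cause of these shifts was not tested. With 3 libraries per group, 47 of 67 simulated 2-fold changes and 10 of 67 of 1.5-fold were recovered, in settings that differ from the data as given above. A difference that was not called is not shown to be absent.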
